A study of Mus musculus with 6 samples.

Results

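Mature Ccr7 dendritic cells were taken from single-cell RNA libraries of YUMMER1.7 melanomas grown in mice that ran or did not run. The members were chosen by their own molecule counts (UMIs, unique molecular identifiers, each marking 1 captured RNA molecule). Cells below 300 genes or 500 UMIs, or above 20% mitochondrial UMIs, were set aside. A kept cell was a member with at least 1 Ccr7 UMI, at least 1 UMI of Fscn1 or Ccl22, at least 5 UMIs over the MHC class II genes H2-Aa, H2-Ab1 and H2-Eb1, no Cd3d, Cd3e or Cd3g UMI, and at most 1 C1qa, C1qb or C1qc UMI. The rule found 82 members among 52390 kept cells, which is 0.157% (exact 95% interval 0.125 to 0.194%). YUMMER1.7 is an established mouse melanoma line. All 6 libraries came from whole tumours of male C57Bl/6 mice aged 6 to 8 weeks that received 600000 tumour cells under the skin. The sedentary group holds replicates 1, 2 and 3. The exercise group holds replicates 5, 6 and 8, from mice run at 12 m per min for 45 min a day over 14 days. Tumours of both groups were digested for 15 min at 37 degrees and strained at 100 um, with viability above 70%, and no cell type was sorted. The labels do not say more about how the replicates relate, so p-values between groups measure only the spread between these libraries, which may be partly technical.

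Conventional dendritic cells take up antigen in tissue as immature cells of 2 kinds, cDC1 and cDC2. On maturation they express the chemokine receptor Ccr7, which guides them along lymphatic vessels to the draining lymph node, and there they present antigen to T cells. The mature state is known in tumours for combining ligands that activate T cells with ligands that restrain them, under broad NF-kB activity, and the cells stop taking up new antigen.

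The sedentary libraries 1, 2 and 3 held 22, 2 and 6 members. Exercise 5, 6 and 8 held 24, 14 and 14. Sedentary 1 and exercise 5 together held more than the other 4 libraries. The 82 cells carried 547807 UMIs, 230754 of them in sedentary and 317053 in exercise libraries, out of 97426009 to 131778565 UMIs per library. A member had a median of 4506.5 UMIs (949 to 38163), 1550.5 genes (506 to 5805) and 2.47% mitochondrial UMIs (at most 6.50%). Because 4 libraries had under 20 members, values pooled over a group are given beside the library values. Sedentary 2, with 2 members and 11538 UMIs, was left out of the fits, except in 1 alternative.

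The genes of the rule are given as a description. Ccr7 was at 1166, 1907 and 1400 CPM (counts-per-million, over all UMIs of a library's members) in sedentary 1, 2 and 3 and at 1649, 968 and 1458 CPM in exercise 5, 6 and 8. Fscn1, the actin-bundling protein fascin of dendrites, was at 1885, 1040 and 3585 CPM and at 1201, 677 and 2075 CPM. Ccl22, a chemokine that draws regulatory T cells through Ccr4, was at 888, 607 and 1400 CPM and at 1041, 771 and 1303 CPM. Pooled over sedentary and exercise members, Ccr7 was at 1239 and 1340 CPM, Fscn1 at 2106 and 1151 CPM and Ccl22 at 953 and 981 CPM. All 3 genes overlapped between the sedentary and exercise libraries. Fscn1 and Ccl22 were both found in 58 members, Fscn1 alone in 17 and Ccl22 alone in 7. In 22705 tumour-like cells without Ptprc or MHC class II UMIs, which serve as a measure of free RNA, Ccr7 was at 0.101 CPM and Ccl22 at 0.0410 CPM, while Fscn1 was at 67.9 CPM.

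Cd274 (PD-L1, the ligand of the T cell brake PD-1), the marker that the rule did not use, was found in 47 of 82 members (57.3%). The tumour-like cells had a Cd274 UMI in 11.9% of cells at a median depth of 14547.5 to 23466 UMIs per library, against 3728 to 5826 UMIs for the members. With each cell thinned to 2000 UMIs the shares were 35.5% of 76 members and 1.98% of 22028 tumour-like cells, with 6 members left out as shallower. Of 25 genes of the mature program counted per cell, Cd274 among them, a member had a UMI of a median of 15 (1 to 21). The library medians ran from 12.5 to 16.5. Program genes were thus found in the members of every library, and the data did not go against the label. Lamp3, a lysosomal marker used for mature dendritic cells in human tissue, and Cst7 were at 0 UMIs in all members. Some lists of other cells were present: summed over all members, plasmacytoid markers (led by Bst2 and Tcf4) were at 573 CPM, fibroblast markers at 434 CPM, macrophage and monocyte markers at 259 CPM and tumour-like markers at 203 CPM. In the T cell list Trac, Cd4 and Lef1 were at 0, and in the B cell list Cd79a, Cd79b and Pax5. The summed T cell list (112 to 418 CPM by library) was led by Il7r, a receptor that mature dendritic cells also express. In 7 members there were at least 3 UMIs of tumour-like markers, and all 6 members above 15000 UMIs were among them. These 6 held 33152, 28658 and 21121 of the 183507 member UMIs of sedentary 1 and 24083 of 131611 in exercise 5. In exercise 6 they held 38163 and 32280 of 127123. CPM values weight each member by its UMIs, so the levels of sedentary 1 and exercise 6 rest in large part on these cells. Scrublet called 82 to 276 doublets per library and none among the members. Library pairs shared 17 to 30 barcodes. A barcode of 2 members recurred in another library, and no barcode was a member in both.

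Cells just inside the limits were near the other members in their program level, and most of those just outside were lower. The program genes that the rule did not use summed to 19138 CPM in the 7 members with exactly 1 Ccr7 UMI and to 14363 CPM in the 75 with more. Members with 5 to 9 MHC class II UMIs (16 cells) were at 14229 CPM. Just outside, 17 cells that failed only for lack of Fscn1 and Ccl22 were at 3675 CPM. The 34 cells with 1 to 4 MHC class II UMIs were at 3467 CPM, with 414 CPM of tumour-like markers and a mean depth of 14567 UMIs. Of cells that failed on C1q, 3 had 2 to 4 UMIs (2281 CPM) and 9 had 5 or more (8165 CPM). The 2 cells with Fscn1 and Ccl22 but no Ccr7 UMI were the exception, at 25888 CPM over 2704 UMIs. Only 1 cell failed on Cd3. Cd274 set these cells apart less than the program sum did. It was at 167 CPM in the 75 members with more than 1 Ccr7 UMI. In the 17 cells without Fscn1 and Ccl22 it was at 162 CPM, and in the 9 with 5 or more C1q UMIs at 132 CPM. It was at 38.4 CPM in the 34 cells with 1 to 4 MHC class II UMIs and at 71.3 CPM in the 3 with 2 to 4 C1q UMIs.

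**Figure D1:**
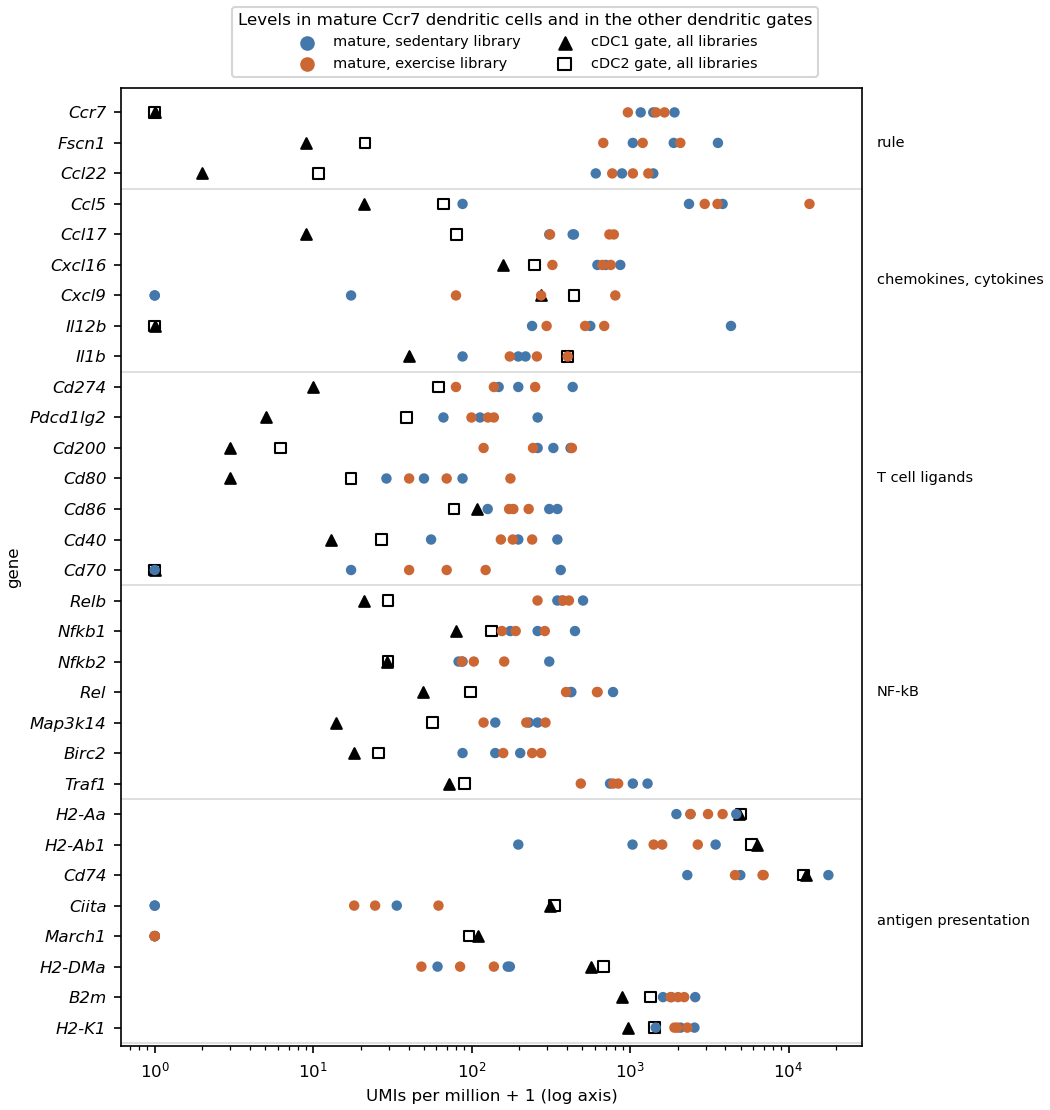
Levels of genes by role in the mature Ccr7 cells of each library (circles) and pooled over the cDC1 gate (triangles) and cDC2 gate (open squares), in CPM plus 1 on a log axis. Ccr7 is at 0 in both gates because the gates required it, and March1 is at 0 in the mature cells of all 6 libraries.

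Signals to T cells were carried by chemokines, cytokines and surface ligands. Ccl5, which recruits T cells, was at 2354, 86.7 and 3837 CPM in sedentary 1, 2 and 3 and at 3564, 2958 and 13563 CPM in exercise 5, 6 and 8. Exercise 8 was the highest and the 2 cells of sedentary 2 were the lowest, and the groups overlapped. Ccl5 was found in 71 of 82 members (86.6%) and in 25.3% of the deeper tumour-like cells, whose level was 102 CPM. Ccl17, the other Ccr4 ligand beside Ccl22, was at 441, 433 and 308 CPM and at 312, 739 and 789 CPM. Exercise 6 and 8 were above all sedentary libraries and exercise 5 was not. Il12b, the p40 subunit shared by interleukin-12 and interleukin-23, was at 240, 4333 and 560 CPM and at 296, 519 and 686 CPM. Sedentary 2 was high through 50 UMIs in 1 cell. Pooled over sedentary and exercise members, Ccl5 was at 2470 and 5160 CPM, Ccl17 at 420 and 571 CPM and Il12b at 494 and 457 CPM. The partner subunits Il12a and Il23a had no UMI in any member, and 0 counts allow up to 5.59 CPM over the 5 libraries of the fits (a floor of 3 UMIs, counting error only).

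The surface ligands were present at lower and overlapping levels. Cd274 was at 147, 433 and 196 CPM in sedentary 1, 2 and 3 and at 251, 78.7 and 137 CPM in exercise 5, 6 and 8. Pdcd1lg2 (PD-L2), the other PD-1 ligand, was at 65.4, 260 and 112 CPM and at 98.8, 126 and 137 CPM. Both PD-1 ligands were found in every library. Cd40, the receptor for T cell help, was at 54.5, 347 and 196 CPM and at 152, 181 and 240 CPM. Cd80 (27 cells) and Cd86 (50 cells), which bind Cd28 and Ctla4 on T cells, were at 78.5 and 184 CPM over all members. Il4i1, a secreted enzyme that breaks down aromatic amino acids, was at 354, 953 and 532 CPM and at 539, 275 and 360 CPM. In the pooled members of sedentary and exercise libraries, Cd274 was at 169 and 161 CPM, Pdcd1lg2 at 82.3 and 117 CPM, Cd40 at 91.0 and 179.8 CPM and Il4i1 at 412 and 401 CPM. Tolerance-linked Ido1 and Il10 had no UMI, and Aldh1a2, which makes retinoic acid, was found in 3 cells.

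To show where the mature cells differ from other dendritic cells, their summed counts were compared with those of 2 gates drawn on the same libraries. The cDC1 gate took 102 cells (30 sedentary, 72 exercise) with at least 2 UMIs of Xcr1 and Clec9a, and the cDC2 gate took 213 cells (67 and 146) with at least 2 UMIs of Cd209a, Mgl2 and Clec10a and at least 1 of Itgax, Flt3 and Zbtb46. Both gates had the same MHC class II, Cd3 and C1q limits as the members and no Ccr7 UMI, and the cDC2 gate had no Xcr1 or Clec9a UMI. The 12 macrophage and monocyte markers summed to 2414 CPM in the cDC2 gate and to 359 CPM in the cDC1 gate. The 10 cDC2 markers summed to 1804 CPM in the cDC2 gate. How many cells of the cDC2 gate were macrophages or monocyte-derived was not tested. The tests used edgeR's quasi-likelihood test with Benjamini-Hochberg adjustment, the library as a block and 5 libraries, and left out the genes of the rule and gates. The gates were cut on the same cells' RNA and at other depths: median UMIs by library were 6647 to 9504 in the cDC1 gate and 5336 to 6485 in the cDC2 gate. Both comparisons share the same mature cells. The lists below come from knowledge of the mature state, so the program list is no independent evidence of its own direction.

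Against the cDC1 gate, the mature cells were higher in all tested NF-kB genes and in most tested MHC class I genes, and lower in most tested MHC class II accessory genes, cDC1 markers and cell cycle genes. Of the chemokine list 4 of 13 genes could be tested and 3 were higher (Ccl5, Ccl17 and Cxcl16), and all 4 tested of 14 inhibitory genes were higher (Il4i1, Socs2, Cd200 and Cd274). Of 1832 genes tested, 370 (20.2%) were higher and 250 (13.6%) lower, and the median log2 fold change of all genes was -0.02. All 21 tested genes of the 36 in the program list were higher, with a median log2 fold change of 4.33. The other 15 had too few counts to be tested. Among them were Lamp3, Cd80, Cd40, Pdcd1lg2, Socs1 and Aldh1a2.

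The largest differences were in genes that the cDC1 gate lacked or nearly lacked. Ccl5 (chr11:83525778-83530518, minus strand, GRCm38) was at 5255 ± 4680 CPM in the mature cells and at 17.1 ± 14.0 CPM in the cDC1 gate (mean ± SD, n = 5 libraries), a log2 fold change of 7.83 with a standard error of 0.40 (adjusted p = 2.23e-08). It was higher in 5 of 5 libraries. Fabp5, a fatty acid carrier, was at 2978 ± 1375 against 21.8 ± 8.77 CPM (log2 fold change 7.24), and Samsn1, an adaptor of lymphocyte signalling, had a log2 fold change of 7.25. Il12b, with 209 UMIs in these libraries against 0, was at least 126-fold higher. Il4i1 was likewise at least 127-fold higher (211 UMIs against 0), and Tnfrsf4 (OX40) was at least 57.8-fold higher. Scin, an actin-severing protein, was at least 42.8-fold higher, and the predicted gene Gm13546 at least 75.9-fold. These bounds set the cDC1 gate at 3 UMIs over its 5 libraries. Cacnb3, a calcium channel subunit (139 UMIs against 1), had a ratio of 251 (counting interval 44.3 to 9990), and the membrane protein Tmem176a (156 against 1) a ratio of 282 (49.8 to 11203).

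All 10 tested genes of the 16 in the NF-kB list were higher than in the cDC1 gate, with a median log2 fold change of 2.88. Both arms of the pathway were among them. Relb, the subunit of the non-canonical arm, was at 384 ± 87.8 against 16.4 ± 12.5 CPM (log2 fold change 4.28, adjusted p = 8.33e-07). Map3k14, the NIK kinase that starts that arm, had a log2 fold change of 4.33, and Nfkb2, the precursor of Relb's partner p52, one of 2.28. Rel, a canonical subunit, had a log2 fold change of 3.48 and Nfkb1 one of 1.64. The inhibitors Nfkbia (2.07) and Nfkbib (1.92) and the survival adaptors Traf1 (3.56), Birc2 (3.73) and Cflar (1.89) were higher too.

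NF-kB genes include targets of the pathway itself, so the kB motif was looked for in their promoters, and 1 stretch that holds it is shown per gene. All tested genes of the NF-kB list differed from the cDC1 gate. The same held for all tested genes of the program, inhibitory, costimulatory and cytokine lists. The motif was GGG, any 3 bases, then TTCC, or on the other strand GGAA, any 3 bases, then CCC, searched in the 250 bases before each RefSeq start on GRCm38.p6. It was present in 5 of the 14 NF-kB list genes with a promoter entry (35.7%), in 2 of 26 program genes (7.69%) and in 5.31% of 27025 genes in all. Of the genes in the rule, 0 of the 2 with an entry held it. Tnfrsf9 (4-1BB), from the program list, is shown too. Stretches are written 5′ to 3′ on the gene's strand with the motif in capitals.
Nfkb2, chr19:46304679-46304736, plus strand: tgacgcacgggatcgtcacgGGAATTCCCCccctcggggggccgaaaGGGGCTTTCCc
Nfkbia, chr12:55492648-55492696, minus strand: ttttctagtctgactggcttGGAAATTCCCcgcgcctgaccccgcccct
Nfkbie, chr17:45555574-45555623, plus strand: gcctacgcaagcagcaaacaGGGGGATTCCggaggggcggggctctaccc
Rel, chr11:23771031-23771080, minus strand: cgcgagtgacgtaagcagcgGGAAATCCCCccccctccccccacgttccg
Tnfaip3, chr10:19015411-19015442, minus strand: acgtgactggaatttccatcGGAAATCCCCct
Tnfrsf9, chr4:150927936-150927985, plus strand: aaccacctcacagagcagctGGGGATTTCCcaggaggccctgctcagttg
The Nfkb2 stretch holds 2 matches, 11 and 38 bases before that start. Nfkb2 has 1 match each before the other two starts in the table, and Tnfaip3 has 1 before another start; for each gene the stretch furthest upstream on its strand is shown. Nfkbia (376 CPM over all members), Rel (493 CPM), Nfkb2 (120 CPM) and Tnfrsf9 (133 CPM) were expressed at over 100 CPM in the mature cells, and Nfkbie (63.9 CPM) and Tnfaip3 (18.3 CPM) at less. Of these 6 genes, Nfkbie, Tnfaip3 and Tnfrsf9 were not tested against the cDC1 gate. A match describes letters in the window and is no sign of binding.

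Against the same cDC1 gate, antigen presentation genes divided by class. Of 7 tested genes of the MHC class II list, 5 were lower and 1 (Lgmn, an endosomal protease) higher, with a median log2 fold change of -2.62. March1, the ubiquitin ligase that removes MHC class II from the surface of immature dendritic cells, had 0 UMIs in the mature cells of every library against 102 in the cDC1 gate, at least 18.8-fold lower. Ciita, the master activator of class II transcription, was at 26.8 ± 22.4 against 296 ± 23.5 CPM (log2 fold change -3.02, adjusted p = 1.65e-05). The peptide loading genes H2-DMa (-2.62) and H2-DMb1 (-3.61) and the invariant chain Cd74 (-1.31) were also lower. Of 13 tested MHC class I genes, 7 were higher and 2 lower: B2m, the class I light chain, was at 2039 ± 372 against 899 ± 103 CPM (log2 fold change 1.31, adjusted p = 4.25e-05), and H2-K1 (1.18) and H2-D1 (0.97) were higher, as were Psme1, Psme2, Psmb10 and Tapbp, while the chaperones Calr and Pdia3 were lower (-1.15 each).

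The cDC1 identity genes went with the gate that selected them. Of 7 tested cDC1 markers not used by the gate, 6 were lower, among them Naaa (10.7 ± 9.19 against 873 ± 55.6 CPM, log2 fold change -6.02), Itgae, Wdfy4, Tlr3 and Irf8 (-1.09). Of 7 tested cell cycle genes 5 were lower (Mki67, Top2a, Mcm3, Stmn1 and Hmgb2, with log2 fold changes of -1.77 to -2.19). Other called genes were Il7r (5.32), Cd200 (6.67), Socs2 (6.44), Anxa3 (5.14), Myo1g (2.78), Cd83 (3.54), Il1b (3.53), Gbp2 (2.43), Irf1 (2.08) and Isg15 (1.63), all higher, and Irf7 (-1.77) and Kit (-1.31), both lower. With no scaling beyond the library total, the split in this comparison was 305 higher and 351 lower in place of 370 and 250, and the median over all genes moved to -0.173. No named gene changed direction under any alternative, but 8 lost their call under at least 1: Psme1, Psmb10, Tapbp, Samhd1, Vim, Jun, Ndrg1 and Cd86.

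**Figure D2:**
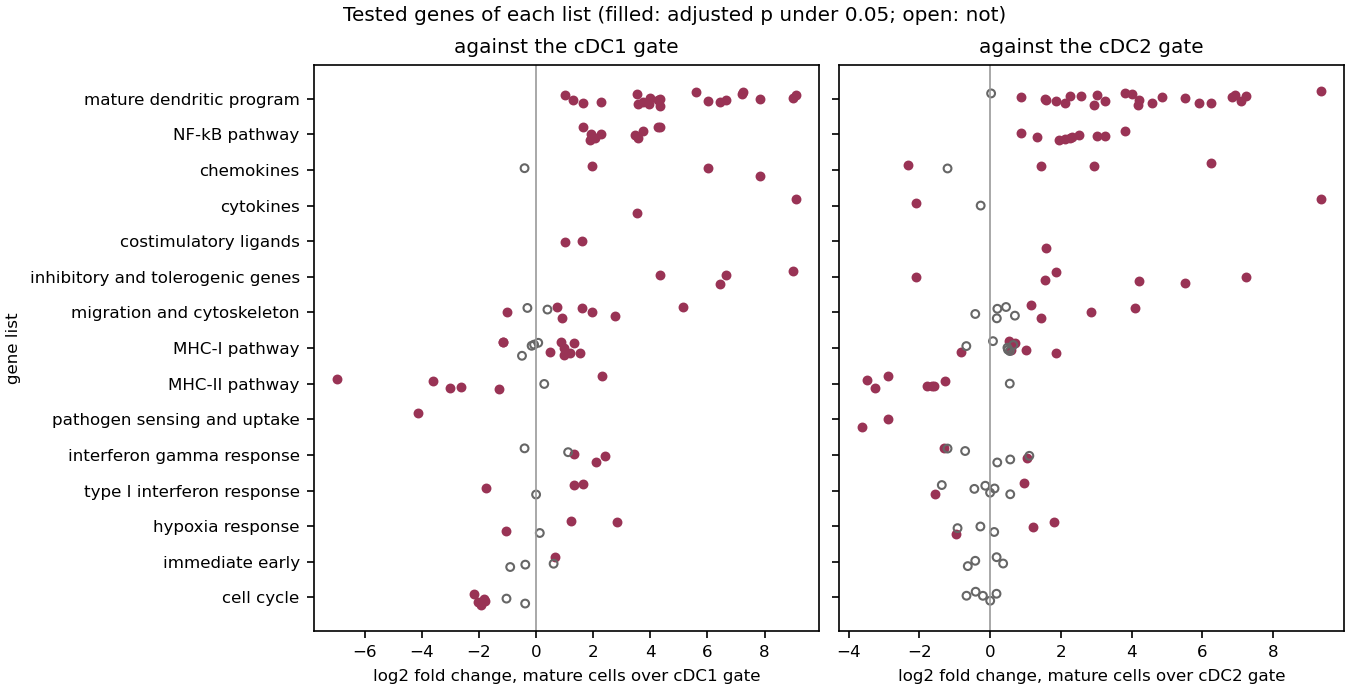
Log2 fold changes of the tested genes of each list, mature Ccr7 cells over the cDC1 gate on the left and over the cDC2 gate on the right (filled, adjusted p under 0.05). In both panels the program and NF-kB genes lie to the right of 0 and most MHC class II genes to the left; the one open program gene on the right is Il4ra.

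Against the cDC2 gate, the program, NF-kB and class II lists gave the same directions, and myeloid genes of the cDC2 gate took the place of the cDC1 genes among those lower. Of 2214 genes tested, 288 (13%) were higher and 264 (11.9%) lower, with a median of -0.145 over all genes. Of 25 tested program genes, 24 were higher (median log2 fold change 4.0), and Il4ra was not called. Il12b was at least 170-fold and Scin at least 57.9-fold higher against 0 UMIs in the cDC2 gate. Serpinb6b, an inhibitor of serine proteases, was at 1460 ± 541 against 9.32 ± 11.5 CPM (log2 fold change 6.91, adjusted p = 2.24e-07), and its relative Serpinb9, which inhibits granzyme B, at 917 ± 273 against 16.1 ± 13.3 CPM (5.84). These proteins belong to a family with close copies, between which the counting may have divided reads. The ratio was 172 for Il4i1 (211 UMIs against 3, counting interval 58.1 to 841), 144 for Bcl2l14 (48.3 to 703) and 170 for Cacnb3 (46.2 to 1418). It was 67.7 for Nudt17 (22.4 to 335) and 308 for Gm13546 (54.3 to 12273).

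The PD-1 ligands could be tested here. Cd274 was at 162 ± 64.8 against 41.7 ± 19.2 CPM (log2 fold change 1.86, adjusted p = 0.00171) and Pdcd1lg2 at 108 ± 27.8 against 38.1 ± 16.2 CPM (1.55, adjusted p = 0.00502), each higher in 5 of 5 libraries. All 10 tested NF-kB genes were higher (median 2.27), led by Relb (3.81) and Traf1 (3.24). Nfkb1, with an adjusted p of 0.050, passed the threshold narrowly and lost its call under 7 alternatives. Among chemokines Ccl5 (6.23), Ccl17 (2.94) and Cxcl16 (1.45) were higher and Ccl6 (-2.33) lower. Tgfb1 was lower (-2.10). Il1b, which was higher than in the cDC1 gate, was not called here, at 252 CPM over all members and 402 CPM in the cDC2 gate.

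Of 8 tested MHC class II genes, 7 were lower than in the cDC2 gate (median -1.72): H2-DMb1 (-3.49), Ciita (-3.26), H2-DMa (-2.90), H2-DMb2 (-1.80), Ctss (-1.64), H2-Oa (-1.58) and Cd74 (-1.27). Of 12 tested class I genes 5 were higher, with Psme2 (1.87), a proteasome activator subunit, the furthest, and Calr was lower. Of these, H2-K1, H2-D1, B2m and Calr lost their call under at least 1 alternative. Of 6 tested macrophage and monocyte markers 5 were lower (Lyz2 -4.84, Csf1r -3.74, Ccr2 -3.71, Cd68 -3.22 and Apoe -2.99), as were the Fc receptors Fcgr3 (-3.61) and Fcgr2b (-2.88). Ccr1, an inflammatory chemokine receptor, had 0 UMIs against 140, at least 19.1-fold lower. Irf8 (2.07) and Batf3 (2.19), transcription factors of the cDC1 lineage, were higher than in the cDC2 gate, while the cDC1 markers Ifi205 (-1.28) and Naaa (-4.59) were lower. None of 5 tested cell cycle genes was called in this comparison, and 2 of the 5 had positive fold changes.

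Several chemokine and cytokine genes were found in only some of the members. Ccl17 was found in 32 cells, Il12b in 30, both in 10 and neither in 30. Of Il12b cells 33.3% had Ccl17, against 42.3% of the others, so the 2 genes were not clearly set apart. Apol7c, an apolipoprotein L family gene of dendritic cells, was found in 17 cells, all of which had Ccl22 and 12 of which had Ccl17. Ccl22 is a gene of the rule, and 48 of the 65 cells without Apol7c (73.8%) had it too. Of the 32 Ccl17 cells 31 had Ccl22, against 34 of the 50 others. Cd274 was found in 25 of the Ccl17 cells (78.1%), against 22 of the 50 others (44.0%). The median depth was 5533.5 UMIs in cells with Ccl17 and 3918.5 UMIs in cells without, and the part of depth in this difference was not tested. H2-Ab1, a gene of the rule, was found in 14 of the 30 Il12b cells and in 41 of the 52 others, where the median depth was lower (5581 against 4058 UMIs). It was also found in 44 of the 71 Ccl5 cells against 11 of the 11 others. For Ccl17 the order was the other way, with H2-Ab1 in 24 of 32 cells against 31 of 50. H2-Ab1 UMIs helped to select the members, so these shares are description only. Ccl5 was uneven as well: its 3 highest cells held 560 of 2206 UMIs, with 223 in the highest, a cell of exercise 8 with 3838 UMIs in all.

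Marker genes of the 2 lineages were sparse in the mature cells. Xcr1 had 3 UMIs, Clec9a 6, Sirpa 17, Mgl2 18, Clec10a 2 and Cd209a 0 over all members. Of 8 cDC1 markers (Batf3, Irf8 and Ifi205 set aside), 18 cells had a UMI, and of 8 cDC2 markers (Irf4 and Klf4 set aside) 29 had one. In 6 cells both kinds were found and in 41 neither, so these genes could not place most of the cells in 1 lineage. With no gene of the 2 lists set aside, 37 members had only cDC1 markers, 0 only cDC2 markers, 40 both and 5 neither. Irf8 was found in 66 cells and Batf3 in 48. With at least 2 UMIs of Mki67 and Top2a, 8 members were dividing by this count: 2 in sedentary 1, 3 in exercise 5 and 3 in exercise 6. Their median depth was 20646.5 UMIs against 4372.5 in the other members, and 4 of them had over 15000 UMIs. These 4 also held at least 3 UMIs of tumour-like markers. Whether their Mki67 and Top2a UMIs came from tumour-cell RNA was not tested. In exercise 8, 1 cell of 2918 UMIs held all 23 Ccr9 UMIs, all 5 Siglech UMIs and 29 of 35 Ly6c2 UMIs of the members, genes known from plasmacytoid dendritic cells.

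**Figure D3:**
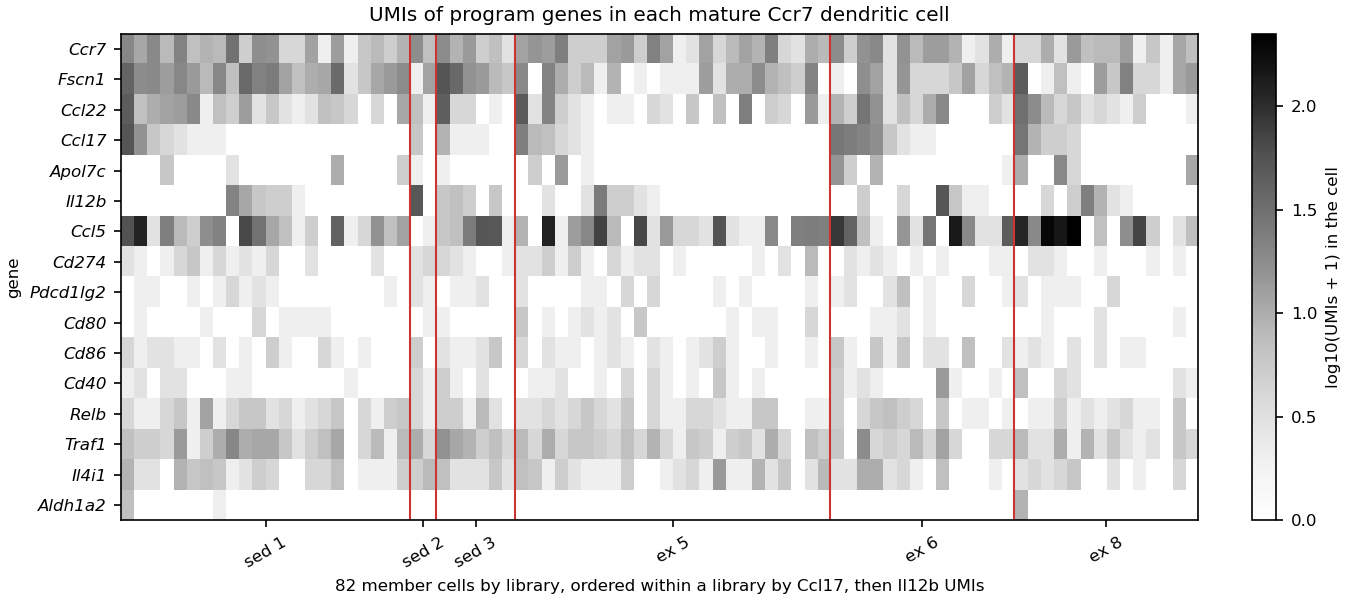
UMIs of program genes in each of the 82 members, as log10 of UMIs plus 1 (grey scale), with cells ordered by library and then by Ccl17 and Il12b UMIs. Ccl17 (32 cells) and Il12b (30 cells) are each missing from most columns, and 10 cells hold both.

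Whether exercise changed how many mature cells a tumour held was compared over libraries. They made up 0.278, 0.0278 and 0.0631% of kept cells in sedentary 1, 2 and 3. In exercise 5, 6 and 8 they made up 0.294, 0.147 and 0.139%. Sedentary 1 lay with the exercise libraries and sedentary 2 and 3 below them. The group means were 0.123 ± 0.135% and 0.193 ± 0.0869% (SD, n = 3 each), a difference of 0.0705 percentage points (exact permutation test, two-sided p = 0.5), and the pooled shares were 0.122 and 0.187%. With 3 libraries against 3 the smallest p this test can give is 0.1.

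The share of all cells moves with how much of a tumour digest was immune, so 2 other denominators were used. Cells with a Ptprc UMI (CD45, the leukocyte marker) were 18.3 to 42.1% of kept cells in the sedentary libraries and 23.8 to 46.2% in the exercise libraries, the highest being sedentary 2 and exercise 5. Of these, mature cells made up 1.07, 0.0659 and 0.345% in sedentary 1, 2 and 3, and 0.635, 0.594 and 0.583% with exercise. The exercise libraries lay close together, between the sedentary values (0.493 ± 0.517 and 0.604 ± 0.0277%, exact permutation test, two-sided p = 0.7). Without sedentary 2 the difference changed sign, from 0.111 to -0.102 percentage points. Of the cells in the 3 dendritic gates together, mature cells made up 36.1, 5.88 and 18.8% in sedentary 1, 2 and 3, and 19.5, 15.9 and 23.7% with exercise. The means were 20.2 ± 15.1 and 19.7 ± 3.91%, a difference of -0.516 percentage points (exact permutation test, two-sided p = 1), and it turned to 7.4 without sedentary 1. A difference between the groups was not detectable with these cell numbers. A change in cell number and a change in how many cells passed the gate cannot be told apart here.

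**Figure D4:**
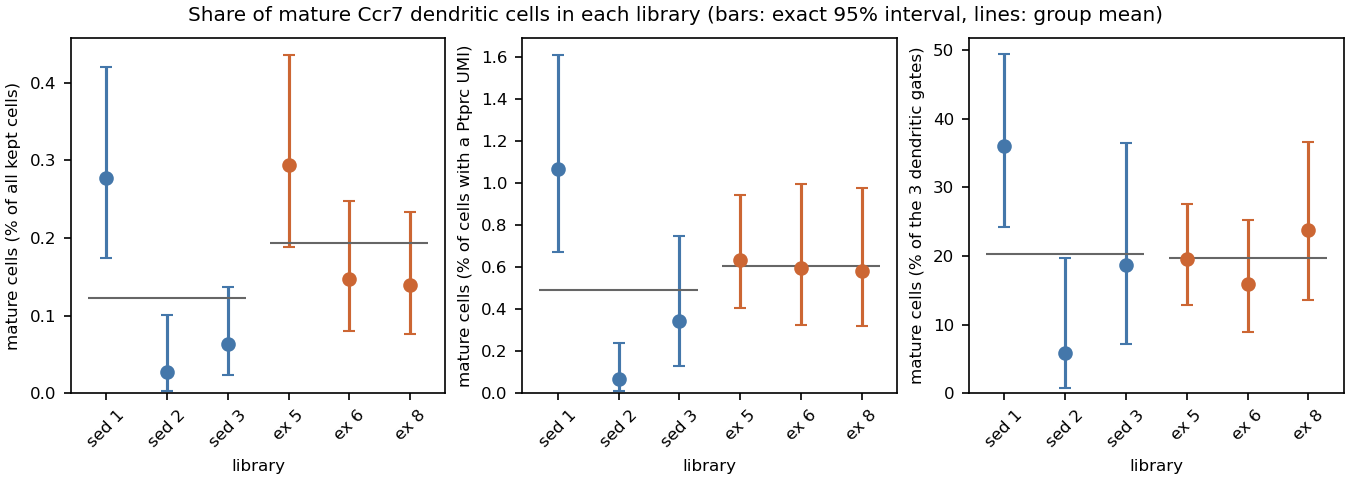
Mature Ccr7 cells as a percentage of kept cells (left), of cells with a Ptprc UMI (centre) and of the 3 dendritic gates (right) in each library, with exact 95% intervals that cover counting error only and lines at the group means. Sedentary 1 has 36.1% in the right panel and sedentary 2 has 5.88%, while the exercise libraries lie between them.

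Within the mature cells, exercise and sedentary libraries were compared gene by gene, without sedentary 2. Of 2081 genes tested, 0 (0%) passed an adjusted p of 0.05 in edgeR's quasi-likelihood test. At an unadjusted p under 0.05 there were 60, and the smallest adjusted p was 0.527. DESeq2 called 2 genes on the same data, Hist1h2ap (adjusted p = 0.00538) and Cxcl9 (adjusted p = 0.0495). The values of the genes with the smallest p are therefore given without a call. Of all 2081 genes, 355 (17.1%) did not overlap between the 2 sedentary and 3 exercise libraries of the fit, 168 of them higher and 187 lower in exercise, so that separation is common among genes in this design.

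Cxcl9, the interferon-gamma induced chemokine that draws Cxcr3 T cells, was at 16.3 and 0 CPM in sedentary 1 and 3 and at 274, 78.7 and 806 CPM in exercise 5, 6 and 8 (log2 fold change 4.67, standard error 1.10, adjusted p = 0.955). The groups did not overlap. It had 96 UMIs in 17 cells, of which 3 cells held 66. In sedentary 2 it was at 0 as well, and pooled over each group it was at 13.0 and 293 CPM. Without members over 15000 UMIs it was called (adjusted p = 0.0224), as it was without the filter on low counts (adjusted p = 2.48e-06).

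Other genes among the 10 with the smallest p were also higher in the exercise libraries, without a call. Ifi27l2a, an interferon-induced gene, was at 223 and 336 CPM in sedentary 1 and 3 and at 517, 677 and 926 CPM in exercise 5, 6 and 8. Ly6a (Sca-1), also interferon-induced, was at 76.3 and 56.0 CPM and at 205, 181 and 377 CPM, and was called only without members over 15000 UMIs (adjusted p = 0.0470). Cd52, a leukocyte surface glycoprotein, was at 594 and 364 CPM and at 1489, 818 and 1698 CPM. These 3 genes did not overlap between the groups of the fit, and 45, 22 and 73 members had a UMI of them. Parp9, another interferon-induced gene, was lower in the exercise libraries (log2 fold change -1.54, adjusted p = 1), and its groups did not overlap either. Of the interferon-gamma list all 8 tested genes had positive fold changes, with a median of 0.65 beside 0.029 over all genes, and none was called. The summed list overlapped between groups, at 1041, 1473 and 1736 CPM in sedentary 1, 2 and 3 and at 2264, 1408 and 2829 CPM in exercise 5, 6 and 8. Of the type I interferon list 6 of 7 were positive (median 0.64).

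Markers of other cells differed between libraries. The 12 macrophage and monocyte markers summed to 27.2, 173 and 0 CPM in sedentary 1, 2 and 3 and to 729, 15.7 and 634 CPM in exercise 5, 6 and 8, and 0 of the 12 were at 0 over all members. Exercise 5 and 8 were high and exercise 6 was below 2 sedentary libraries. Of the 142 UMIs of this list, 3 cells held 112: a pair in exercise 5 (54 and 28 UMIs), and in exercise 8 the cell with Ccr9 and Siglech (30 UMIs). The 5 fibroblast markers were at 796, 260 and 112 CPM and at 251, 307 and 223 CPM, with Lum at 0 and sedentary 1 apart from the rest. The 7 tumour-like markers were at 267, 0 and 0 CPM and at 129, 315 and 85.7 CPM. What part these markers had in the differences above was not tested.

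The smallest p belonged to histone genes of dividing cells. Hist1h2ap was at 32.7 and 28.0 CPM in sedentary 1 and 3 and at 798, 913 and 103 CPM in exercise 5, 6 and 8 (log2 fold change 4.29, standard error 0.86, adjusted p = 0.527). Its 3 highest cells held 197 of 234 UMIs (84.2%). Hist1h2ae had 88 of 107 and Hist1h1b 61 of 79 UMIs in 3 cells. The 8 dividing members held 377 of the 420 UMIs of these 3 genes. Of these 8 members, 4 had over 15000 UMIs and at least 3 UMIs of tumour-like markers. Replication-dependent histone genes are close copies of each other and their RNAs mostly lack the poly(A) tail that the assay captures, so these counts are uncertain.

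Genes lower in the exercise libraries included a member of the mature program. Tnfrsf9 (4-1BB, a costimulatory receptor of the TNF family) was at 207 and 252 CPM in sedentary 1 and 3 and at 98.8, 70.8 and 68.6 CPM in exercise 5, 6 and 8 (log2 fold change -1.39, standard error 0.47, adjusted p = 1). The groups of the fit did not overlap, but sedentary 2, with 2 members, was at 0, and the pooled levels were 204 and 82 CPM. Net1, a guanine nucleotide exchange factor for RhoA, was at 338 and 896 CPM and at 274, 110 and 240 CPM. Lima1, an actin-binding protein, was at 229 and 756 CPM and at 114, 220 and 189 CPM. Over the whole program list, 11 of 29 tested genes had positive fold changes (median -0.15), and over the NF-kB list 4 of 12 (median -0.23), with no call. The mature program as a list was thus near the median of all genes (0.029).

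**Figure D5:**
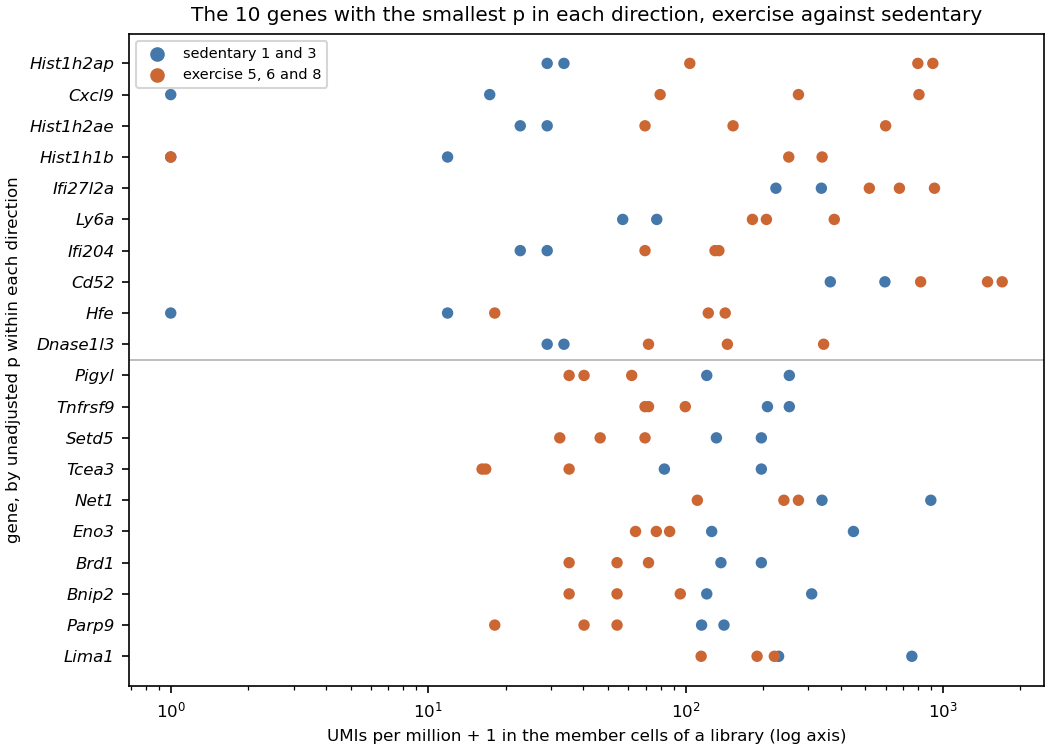
Levels in the mature Ccr7 cells of each fitted library for the 10 genes with the smallest unadjusted p in each direction, in CPM plus 1 on a log axis. None passed the adjusted threshold; the groups overlap for Hist1h1b, which is at 0 in sedentary 3 and exercise 8.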

How the data were processed

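The authors deposited gene-by-barcode UMI counts for each library, not normalized. Alignment to mm10 and counting with Cell Ranger 6.1.2 are per the submitters' processing notes, while the matrix headers name software 3.1.0, and 10x 3′ v3 chemistry is per the labels' protocols. A 3′ UMI count is not scaled by gene length. From these counts, cells were kept and gated as described, with no doublets removed in the main analysis (Scrublet in scanpy 1.11.5 served as a check). UMIs were summed per library and gate, and libraries with under 5 members were left out of fits. edgeR 4.0.16 (limma 3.58.1, R 4.3.3) was run with TMM factors, filterByExpr and a quasi-likelihood test, adjusted by Benjamini-Hochberg over all genes tested, with the library as a block between gates. DESeq2 1.42.0 was an alternative. Shares were compared with an exact permutation test over libraries (scipy 1.17.1). Intervals are exact binomial or Poisson at 95%. Of 305 listed genes 301 were matched by symbol. Depth is given with the results: at 11538 UMIs, 1 UMI in sedentary 2 is worth 86.7 CPM.

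The genes named are, in each comparison, the 10 with the smallest p without a call, or the 10 with the largest fold among those called with a mean of at least 50 CPM in 1 gate, in each direction, and the genes of the lists. The members and lists were chosen with earlier results of these data known. Gene positions are from the mm10 (GRCm38) annotation and promoters from RefSeq GRCm38.p6. The fits were tested on simulated counts with the same dispersion for all genes, which the real counts need not have. Of the 4-fold changes put in, the exercise fit recovered 117 of 159, and it called 8 unchanged genes. In the real exercise fit, Hist1h2ap and Cxcl9 were not called at log2 fold changes of 4.29 and 4.67. The simulated recovery therefore does not measure which changes the real exercise fit could detect. The cDC1 fit recovered 156 of 157 and called 9 unchanged genes, and the cDC2 fit 158 of 160 and 5. Other settings are in the closing section.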

Additional observations from a re-analysis of the deposited data

How the results depend on the processing

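The share of kept cells was higher in exercise under every setting tried, with a difference of 0.0204 to 0.148 percentage points when 1 library was left out and 0.0105 when Fscn1 and Ccl22 were both required. The difference in the share of Ptprc cells ran from -0.102 (without sedentary 2) to 0.398 in those fits and was -0.0412 when both genes were required. The difference in the share of the dendritic gates ran from -7.69 to 7.4 (without sedentary 1), was 1.39 without exercise 6, 0.128 without Scrublet doublets and 2.66 after thinning to 2000 UMIs. The exercise comparison, with 0 genes called, gave 2 without members over 15000 UMIs (Cxcl9 and Ly6a, a setting chosen after seeing the data), 0 of 1209 tested with sedentary 2 kept (also chosen then), 2 with DESeq2 and 6 without the filter on low counts (Cxcl9, Hist1h2ap, Hist1h2ae, Hist1h1b, Ccr9 and Ly6c2). All Ccr9 and most Ly6c2 UMIs were in the 1 exercise 8 cell with genes of plasmacytoid dendritic cells. The 8 dividing members held 377 of the 420 UMIs of the histone genes. Leaving out 1 library gave 0 to 1, the 1 being Hist1h2ap without sedentary 3 or without exercise 8. The cDC1 comparison, with 620 genes called, gave 1306 without the filter, where 562 were higher and 744 lower, and 475 to 658 without 1 library. The cDC2 comparison, with 552, gave 1022 without the filter (433 higher, 589 lower) and 397 to 594 without 1 library. Among the genes named, 951 of 996 values in the cDC1 comparison, 844 of 877 in the cDC2 comparison and 218 of 228 in the exercise comparison kept direction and side of the threshold, and none reversed; the others lost a call in the gate comparisons (45 and 33) or gained one in the exercise comparison (10). No paired analysis was possible because the groups share no replicate numbers. With 2 members, sedentary 2 limits the sedentary shares, and the fitted sedentary values rest on 2 libraries.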
